A study of Homo sapiens with 12 samples.

Results

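Kinetochore, spindle and chromosome condensation genes encode the machinery that moves chromosomes in cell division. The set described here holds 41 named genes: mitotic kinases, checkpoint proteins, kinetochore subunits, the chromosomal passenger complex, spindle and cytokinesis factors, condensins, MKI67, securin and separase. Cyclins, and kinesins other than CENPE, are not in it. Members were found by their symbols in a table of normalised read counts from RNA sequencing, where they have 42 of 25787 named entries, and 41 of the 14225 named entries with a mean normalised count of at least 10. The other entry, a further one of AURKB, is near 0.

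Centromeres are marked by nucleosomes that contain CENPA, on which the inner kinetochore assembles, and the outer kinetochore built on it binds the ends of microtubules. Kinetochores that lack microtubules recruit checkpoint kinases, which hold back separase until every chromosome is attached. Transcripts of most of these genes peak in G2 and mitosis, and many of their promoters carry a CHR element or CCAAT boxes, which bind the DREAM and MuvB complexes and NF-Y.

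The cells were TC-71, a human Ewing sarcoma line driven by the EWS-FLI1 fusion protein, in 4 groups of 3 biological replicates. One group received YK-4-279, a small molecule known to disturb the binding of EWS-FLI1 to the RNA helicase DHX9, for 16 hours at a dose labelled 2 mM, and its vehicle group received DMSO for the same 16 hours. The siDHX9 group was transfected against DHX9 and its control group with a scrambled sequence, both collected at 48 hours. The design text names shRNAs where the treatment protocol names siRNAs, and all groups are 1 cell line. The DMSO cells were not transfected, so the 2 comparisons differ in time and in handling as well as in agent.

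In units of 1e6, total reads were 48.3 to 53.7 in YK-4-279 libraries, 38.6 to 65.5 in DMSO, 46.9 to 49.4 in siDHX9 and 47.8 to 51.0 in scrambled libraries. DHX9, counted in 1 entry with its neighbour NPL, stood at 19342, 21178 and 21304 in siDHX9 cells, against 30287, 33422 and 34357 in scrambled cells. It fell by 36.9% (-0.66 ± 0.07 SE on the log2 scale, limma adjusted p 4.54e-05; 3 against 3 values allow no exact permutation p below 0.1). It stood at 30613, 29420 and 29959 in YK-4-279 cells, against 36422, 34511 and 33239 in DMSO cells (adjusted p 0.0567). All 6 Ewing sarcoma markers were kept, with sums of 52813 to 57399 in YK-4-279, 48495 to 51019 in DMSO, 44800 to 52887 in siDHX9 and 44230 to 48071 in scrambled libraries. Of 10 blood, endothelial and epithelial markers 2 were kept and 3 were at 0 in every library, with summed levels of 69.4 to 118.6. The entry of ribosomal RNA took 8.79 ± 1.07% of reads in YK-4-279, 5.19 ± 0.244% with DMSO, 2.71 ± 0.915% with siDHX9 and 4.09 ± 0.963% with the scrambled control (SD, n = 3 each), and its part in the results below was not tested.

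The promoters of 6 members are shown because these genes span the range of responses described below: PLK1 and PTTG1 rose with YK-4-279, MKI67 moved in opposite directions in the 2 comparisons, ASPM and CENPK had the lowest log2 changes with YK-4-279, and SPC24 the lowest with siDHX9. Each line gives the 200 bases before the RefSeq transcription start on the gene's own strand, from GRCh38.p14. Capitals mark a CHR element (TTTGAA or its reverse complement TTCAAA) or a CCAAT box (CCAAT or ATTGG). The lines lie at chr16:23678689-23678888 on the plus strand for PLK1, chr5:160421655-160421854 plus for PTTG1, chr10:128126424-128126623 minus for MKI67, chr1:197146670-197146869 minus for ASPM, chr5:65563169-65563368 minus for CENPK and chr19:11155783-11155982 minus for SPC24.
PLK1: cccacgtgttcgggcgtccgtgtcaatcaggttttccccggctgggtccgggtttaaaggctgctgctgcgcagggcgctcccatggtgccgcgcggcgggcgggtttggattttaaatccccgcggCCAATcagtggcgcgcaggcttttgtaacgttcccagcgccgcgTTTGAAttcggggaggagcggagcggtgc
PTTG1: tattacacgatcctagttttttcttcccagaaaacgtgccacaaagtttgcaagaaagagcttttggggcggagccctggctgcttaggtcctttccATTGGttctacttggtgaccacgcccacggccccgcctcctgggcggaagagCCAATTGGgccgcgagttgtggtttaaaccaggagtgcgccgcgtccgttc
MKI67: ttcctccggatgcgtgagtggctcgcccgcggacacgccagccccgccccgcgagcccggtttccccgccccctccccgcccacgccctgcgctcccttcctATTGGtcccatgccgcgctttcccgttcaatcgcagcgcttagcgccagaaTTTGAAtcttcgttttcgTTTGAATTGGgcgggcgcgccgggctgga
ASPM: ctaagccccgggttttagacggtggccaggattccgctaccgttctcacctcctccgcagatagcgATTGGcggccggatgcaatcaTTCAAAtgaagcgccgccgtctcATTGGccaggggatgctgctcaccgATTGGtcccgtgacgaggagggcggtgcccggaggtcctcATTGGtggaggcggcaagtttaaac
CENPK: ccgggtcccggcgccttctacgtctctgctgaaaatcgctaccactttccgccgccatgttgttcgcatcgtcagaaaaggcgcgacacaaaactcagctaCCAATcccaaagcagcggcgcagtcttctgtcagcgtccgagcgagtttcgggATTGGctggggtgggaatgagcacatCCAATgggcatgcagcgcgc
SPC24: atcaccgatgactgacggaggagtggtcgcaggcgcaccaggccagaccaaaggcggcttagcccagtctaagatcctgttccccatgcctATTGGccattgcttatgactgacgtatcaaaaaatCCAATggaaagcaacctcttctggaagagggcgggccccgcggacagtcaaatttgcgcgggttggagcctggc
These 200 bases hold 1 CHR and 1 CCAAT word in PLK1, 0 and 3 in PTTG1, 2 and 2 in MKI67, 1 and 4 in ASPM, 0 and 3 in CENPK, and 0 and 2 in SPC24. In MKI67 the second CHR shares a base with an ATTGG word, and in PTTG1 a CCAAT and an ATTGG word overlap.

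RefSeq windows from 250 bases before to 50 after the start were matched for 33 of the 41 members. A CHR word on either strand was present in 25 of the 33 (75.8%), against 15.2% of all 35116 windows. A CCAAT box was present in 23 (69.7%), against 34.6% of all windows, and both words in 17 (51.5%), against 5.9%. An E2F word (TTTCGCGC, TTTGGCGC or TTTCCCGC, either strand) was present in 2 (6.06%), against 2.74%. Members count 1 window per gene, while the 35116 windows were not reduced to 1 per gene. In 73 windows of other mitosis genes, a list described below, 32.9% held a CHR word and 50.7% a CCAAT box. Both words were in 20.5% of these 73 windows and an E2F word in 11%. The CHR word was found in 16 of the 23 matched members called lower with YK-4-279, in 8 of the 8 not called and in 1 of the 2 called higher. With siDHX9 it was found in 8 of 13 called lower, 16 of 19 not called and the 1 called higher. A match describes these letters in this window and nothing more.

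Most of the machinery was lower after 16 hours of YK-4-279 than with DMSO. Of the 41 members, 26 fell, 2 rose (PLK1 and PTTG1) and 13 were not called, where 6.49% of the 14225 genes fell and 7.33% rose (limma on log2 normalised counts, Benjamini-Hochberg adjusted p under 0.05). The median log2 change was -0.49 over the members and 0.02 over all genes, and 36 of 41 members had a change below 0. For 32 members every YK-4-279 library lay below every DMSO library, which was true of 20.4% of all genes. CENPK alone passed a log2 change of 1 in size. In bulk RNA, fewer cells in mitosis and less of a transcript in each cell cannot be told apart.

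DHX9 knockdown also lowered part of the machinery. In siDHX9 cells 17 of 41 fell, 1 rose (MKI67) and 23 were not called, where 7.97% of all genes fell and 8.75% rose. The median log2 change was -0.28 over the members and -0.0024 over all genes, and 34 members had a change below 0. Every siDHX9 library lay below every scrambled library for 20 members, which was true of 14.4% of all genes. The number called rests on single libraries: it was 8 without siDHX9 replicate 1, 30 without siDHX9 replicate 2 and 10 without siDHX9 replicate 3. Without scrambled replicate 1 it was 11. In the fits without 1 library, 1244 to 4255 of all genes were called. The number of members called also rests on the estimate of the spread, which all groups share. In a fit of the 6 libraries alone, 3 members (SPC24, KNTC1 and TPX2) and 3.46% of all genes were called. TTK, CENPH, CENPI, DLGAP5 and ECT2 lost their calls there, at adjusted p 0.051 to 0.0845. The calls on PLK4, BUB1, NUF2, SPC25, NUSAP1, PRC1, NCAPH, SMC4, MKI67 and PTTG1 were also lost, at adjusted p 0.098 to 0.194.

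The siDHX9 libraries varied most among themselves. The SD was 12.9% of the mean for the median member in siDHX9 cells, against 5.68% in scrambled cells, and 4.83% in YK-4-279 cells, against 5.36% in DMSO cells. Replicate 2 of siDHX9 was the highest of its group for 26 members and had the lowest share of ribosomal RNA, 1.76% of reads, against 3.59% and 2.78% in replicates 1 and 3. The median member stood at -0.33, -0.17 and -0.39 on the log2 scale in the siDHX9 replicates relative to the scrambled mean. In the YK-4-279 replicates it stood at -0.45, -0.58 and -0.53 relative to the DMSO mean.

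**Figure D1:**
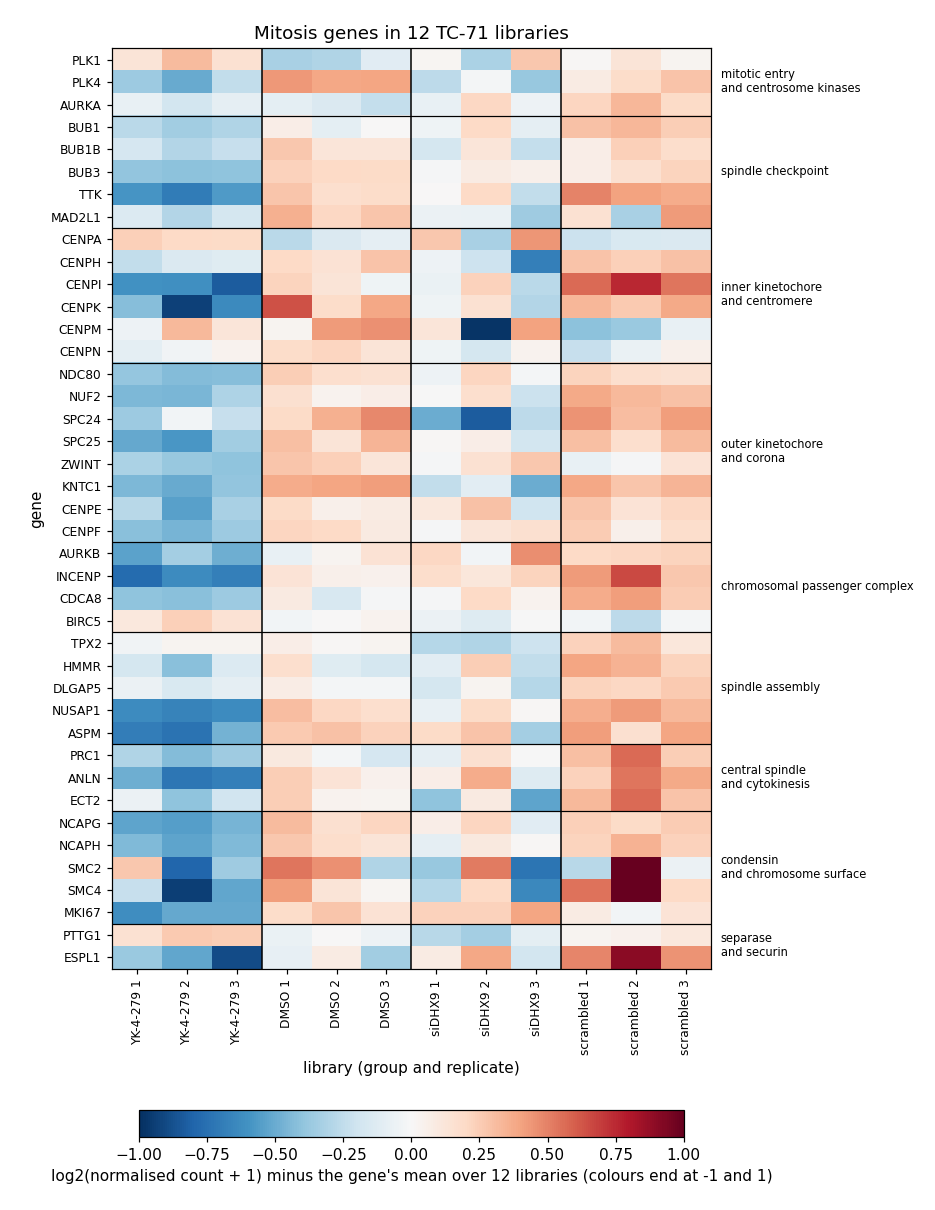
Log2 normalised count of each of the 41 members in each library, minus that gene's mean over the 12 libraries, with genes in rows by role and libraries in columns by group (colours end at -1 and 1). The YK-4-279 columns are blue for most members, while PLK1, PTTG1, CENPA and BIRC5 are warm in each of these columns. The siDHX9 columns differ more from each other than the columns of the other groups.

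**Figure D2:**
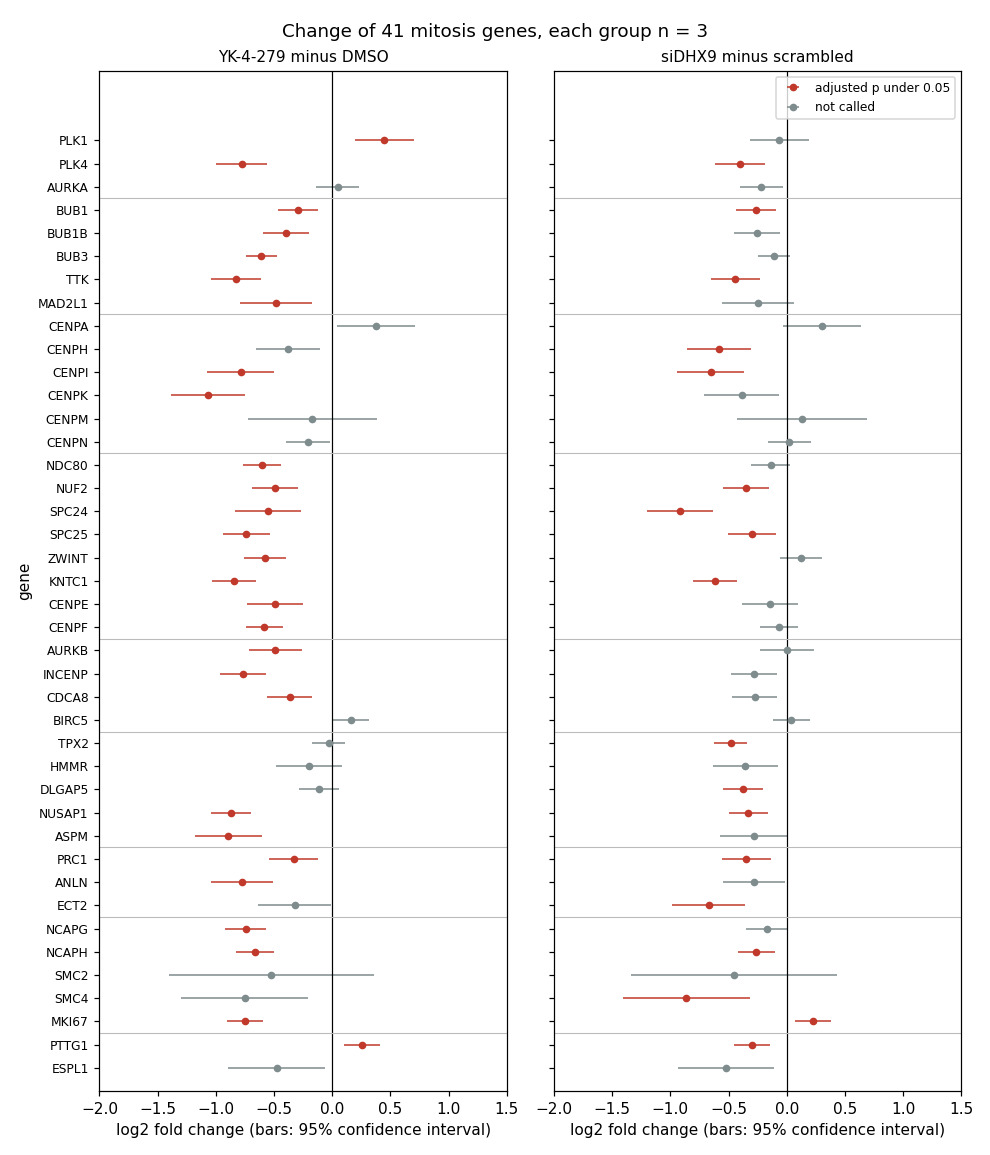
Log2 fold change of each member with its 95% confidence interval, for YK-4-279 minus DMSO on the left and siDHX9 minus scrambled on the right (3 libraries per group, red where the limma adjusted p is under 0.05). With YK-4-279, 26 members are red to the left of 0 and 2 to its right, and with siDHX9 the numbers are 17 and 1.

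Among the mitotic kinases, PLK1, which drives mitotic entry and spindle assembly (GSHG0011042, chr16:23688977-23701688 in hg19, the build of all entry positions below), rose with the drug. Its normalised counts were 9195, 10458 and 9321 in YK-4-279 libraries, against 6686, 6807 and 7742 in DMSO libraries, 1.36-fold higher (log2 0.45 ± 0.12 SE, adjusted p 0.0237). They were 8513, 6747 and 10097 in siDHX9 libraries, against 8479, 9197 and 8537 in scrambled libraries (log2 -0.07, adjusted p 0.728). The drug and vehicle libraries did not overlap, while siDHX9 replicate 2 lay below and replicate 3 above all scrambled libraries. The call on PLK1 was lost, at adjusted p 0.0508 to 0.106, without any 1 of the 3 YK-4-279 libraries or without DMSO replicate 1 or 2. PLK4, the kinase that starts centriole duplication, fell in both comparisons. It stood at 1596, 1445 and 1727 with YK-4-279, against 2775, 2680 and 2704 with DMSO (1.72-fold lower, adjusted p 0.000319). It stood at 1714, 2027 and 1581 with siDHX9, against 2173, 2333 and 2504 with scrambled (1.32-fold lower, adjusted p 0.0173; 0.0585 to 0.0631 without siDHX9 replicate 1 or 3). Neither pair of groups overlapped for PLK4. AURKA, which matures centrosomes, was not called, with a log2 change of 0.05 with YK-4-279 and -0.22 with siDHX9 (adjusted p 0.748 and 0.092).

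The 5 spindle checkpoint genes all fell with YK-4-279, and 2 of them, TTK and BUB1, fell with siDHX9. TTK, the kinase that recruits the other checkpoint proteins to unattached kinetochores, stood at 2401, 2222 and 2440 in YK-4-279 cells, against 4378, 4048 and 4099 in DMSO cells (1.77-fold lower, adjusted p 0.000173). With siDHX9 it stood at 3622, 4146 and 3040, against 5107, 4783 and 4676 with scrambled (1.36-fold lower, adjusted p 0.0103). The groups did not overlap in either comparison, and the YK-4-279 libraries were the lowest of the 12. BUB3, the adaptor that brings BUB1 and BUB1B to kinetochores, stood at 6391, 6322 and 6350 with YK-4-279, against 9824, 9640 and 9601 with DMSO (1.52-fold lower, adjusted p 5.77e-05). The 3 drug libraries differed from each other by far less than from the vehicle. In siDHX9 cells BUB3 stood at 8310, 8876 and 8697, against 8798, 9379 and 9802 in scrambled cells, and these groups overlapped (log2 -0.11, adjusted p 0.232). The kinase BUB1 was 1.23-fold lower with YK-4-279 and 1.2-fold lower with siDHX9 (adjusted p 0.029 and 0.0386). BUB1B, part of the inhibitor of the anaphase-promoting complex, was 1.32-fold lower with YK-4-279 (adjusted p 0.0123), in an entry shared with BUB1B-PAK6 and PAK6 that also overlaps C15orf56. MAD2L1, the checkpoint protein that binds CDC20, was 1.4-fold lower with YK-4-279 (adjusted p 0.0416), and its scrambled values of 8819, 6323 and 10684 were the most scattered of the checkpoint genes.

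Single libraries decided several of these checkpoint calls. With YK-4-279, BUB1 was no longer called without any 1 of the YK-4-279 libraries or DMSO replicate 1 or 3 (adjusted p 0.0634 to 0.126). The same held for BUB1B without DMSO replicate 1 or YK-4-279 replicate 2 (0.0616 and 0.065). MAD2L1 was no longer called (0.0535 to 0.144) without any 1 of the YK-4-279 or DMSO libraries, scrambled replicate 1 or siDHX9 replicate 1. The siDHX9 call on BUB1 was lost, at 0.0502 to 0.122, in 9 of the 12 fits without 1 library, and held without DMSO replicate 1, scrambled replicate 3 or siDHX9 replicate 2.

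Of 6 inner kinetochore and centromere genes, CENPK and CENPI fell with YK-4-279, and CENPI and CENPH with siDHX9. All 3 encode subunits of the network that joins centromeric chromatin to the outer kinetochore. CENPK (GSHG0024831, chr5:64812104-64858995) stood at 579, 407 and 501 in YK-4-279 libraries, against 1212, 884 and 1018 in DMSO libraries, a 2.1-fold lower level (log2 -1.07 ± 0.15 SE, adjusted p 0.000591). It stood at 756, 865 and 634 in siDHX9 libraries, against 982, 932 and 1015 in scrambled libraries (log2 -0.39, adjusted p 0.0891). Neither pair overlapped, though the siDHX9 difference missed the threshold. CENPI stood at 326, 324 and 279 with YK-4-279, against 578, 543 and 483 with DMSO (1.72-fold lower, adjusted p 0.00215). It stood at 474, 582 and 411 with siDHX9, against 734, 838 and 720 with scrambled (1.57-fold lower, adjusted p 0.00634). All scrambled values of CENPI exceeded all DMSO values, and siDHX9 replicate 2 lay above every DMSO library as well. CENPH stood at 1443, 1292 and 928 with siDHX9, against 1816, 1758 and 1826 with scrambled (1.5-fold lower, adjusted p 0.00894). Its YK-4-279 values of 1258, 1352 and 1371 lay below its DMSO values of 1711, 1648 and 1818 without being called (adjusted p 0.0633).

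The other 3 inner kinetochore genes were not called in either comparison. CENPM, a further subunit of that network, stood at 3502, 4552 and 3941 with YK-4-279, against 3691, 4870 and 4978 with DMSO, and at 3953, 1840 and 4785 with siDHX9, against 2735, 2809 and 3451 with scrambled. Its siDHX9 replicate 2 was the lowest of the 12 libraries and replicate 3 among the highest, and the 95% interval of its siDHX9 change ran from -0.42 to 0.69 on the log2 scale. CENPA, the centromeric histone, had a log2 change of 0.38 with YK-4-279 and 0.30 with siDHX9 (adjusted p 0.126 and 0.198), in an entry shared with SLC35F6. CENPN, which recognises the CENPA nucleosome, had changes of -0.21 and 0.02 (adjusted p 0.126 and 0.888), in an entry that overlaps CMC2.

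All 8 genes of the outer kinetochore fell with the drug, by 1.41-fold for CENPE to 1.79-fold for KNTC1, with no overlap between YK-4-279 and DMSO libraries for any of them. With siDHX9, 4 of the 8 fell. KNTC1, which recruits dynein to kinetochores (GSHG0007087, chr12:123011793-123110946), stood at 3413, 3283 and 3551 with YK-4-279, against 6020, 6126 and 6238 with DMSO (log2 -0.84 ± 0.09 SE, adjusted p 7.05e-05). It stood at 3932, 4343 and 3304 with siDHX9, against 6101, 5645 and 5903 with scrambled (1.53-fold lower, adjusted p 0.000741). The 2 control groups overlapped for KNTC1, and every YK-4-279 and siDHX9 library lay below every control library. SPC24, a subunit of the NDC80 complex at its kinetochore end (GSHG0015507, chr19:11256170-11266488), had the lowest log2 change of any member with siDHX9. It stood at 1554, 1234 and 1830 with siDHX9, against 2999, 2710 and 2933 with scrambled (1.89-fold lower, log2 -0.92 ± 0.13 SE, adjusted p 0.000691). It stood at 1699, 2154 and 1871 with YK-4-279, against 2497, 2804 and 3062 with DMSO (1.46-fold lower, adjusted p 0.0156; 0.0531 to 0.0712 without YK-4-279 replicate 1 or 3 or DMSO replicate 2 or 3). Replicate 2 of siDHX9, the highest of its group for most members, was the lowest here.

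Within the same NDC80 complex, the microtubule-binding NDC80 fell 1.52-fold with YK-4-279 (adjusted p 0.000319), against a log2 change of -0.14 with siDHX9 (adjusted p 0.24). Its partner NUF2 was 1.41-fold lower with YK-4-279 and 1.27-fold lower with siDHX9 (adjusted p 0.00371 and 0.0214). SPC25, the partner of SPC24, was 1.67-fold and 1.23-fold lower (adjusted p 0.000331 and 0.046). The siDHX9 call on NUF2 was lost without scrambled replicate 1 or siDHX9 replicate 1 or 3 (0.0552 to 0.0718), and that on SPC25 without any 1 library other than siDHX9 replicate 2 (0.0525 to 0.153). ZWINT, which anchors the dynein adaptor complex, stood at 5060, 4853 and 4784 with YK-4-279, against 7670, 7431 and 6861 with DMSO (1.49-fold lower, adjusted p 0.000754). In siDHX9 libraries it stood at 6277, 7020 and 7614, against 6000, 6275 and 6933 in scrambled libraries, with overlap (log2 0.12, adjusted p 0.334). CENPF, a large corona protein, stood at 5333, 5172 and 5536 with YK-4-279, against 8274, 8189 and 7576 with DMSO (1.5-fold lower, adjusted p 0.000319). Its siDHX9 values of 7055, 7771 and 7980 overlapped the scrambled values of 8483, 7394 and 8034 (adjusted p 0.559). CENPE, the kinetochore motor, had an adjusted p of 0.0113 with YK-4-279 (0.0564 and 0.0657 without DMSO replicate 1 or YK-4-279 replicate 2) and a log2 change of -0.14 with siDHX9 (adjusted p 0.398).

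In the chromosomal passenger complex, 3 of 4 genes fell with YK-4-279 and none was called with siDHX9. INCENP, the scaffold that activates AURKB, stood at 1898, 2090 and 2012 with YK-4-279, against 3558, 3344 and 3324 with DMSO (1.7-fold lower, adjusted p 0.000178). It stood at 3643, 3487 and 3763 with siDHX9, against 4332, 5106 and 3893 with scrambled, without overlap and just short of a call (log2 -0.28, adjusted p 0.0505). BIRC5, or survivin, which binds the complex to the inner centromere, stood at 26800, 29496 and 27646 with YK-4-279, against 24517, 25063 and 25531 with DMSO. All 3 drug libraries were the higher ones, yet the difference was not called (log2 0.16 ± 0.07 SE, adjusted p 0.171). BIRC5 stood at 23945, 22853 and 24885 with siDHX9, against 24497, 20766 and 24641 with scrambled (adjusted p 0.742). AURKB, the kinase that corrects wrong attachments, was 1.4-fold lower with YK-4-279 (adjusted p 0.00927) and had a log2 change of 0.00 with siDHX9 (95% interval -0.23 to 0.23). CDCA8, a further subunit of the complex, was 1.29-fold lower with YK-4-279 (adjusted p 0.0173; 0.0577 to 0.0899 without YK-4-279 replicate 1 or 2 or DMSO replicate 1 or 3). Its siDHX9 difference had an adjusted p of 0.0509.

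All 5 spindle assembly genes had a log2 change below 0 in both comparisons. NUSAP1 and ASPM fell with YK-4-279, while TPX2, DLGAP5 and NUSAP1 fell with siDHX9. ASPM, which acts at spindle poles (GSHG0002822, chr1:197053258-197115824), stood at 2705, 2619 and 3136 with YK-4-279, against 5221, 5336 and 5107 with DMSO (1.86-fold lower, log2 -0.89 ± 0.13 SE, adjusted p 0.000957). With siDHX9 it stood at 4971, 5315 and 3449, against 5839, 4880 and 5736 with scrambled (log2 -0.28, adjusted p 0.163), where only replicate 3 of siDHX9 lay below the scrambled range. NUSAP1, which bundles microtubules near chromosomes (GSHG0009798, chr15:41624892-41673247), stood at 2534, 2466 and 2533 with YK-4-279, against 4848, 4528 and 4398 with DMSO (1.83-fold lower, adjusted p 1.86e-05). It stood at 3713, 4481 and 3938 with siDHX9, against 5038, 5259 and 4908 with scrambled (1.26-fold lower, adjusted p 0.0142; 0.0621 without siDHX9 replicate 1). TPX2, the activator of AURKA on the spindle (GSHG0018659, chr20:30326904-30389603), stood at 16665, 16524 and 17630 with siDHX9, against 23808, 25332 and 21984 with scrambled (1.4-fold lower, adjusted p 0.000435). With YK-4-279 it stood at 19820, 20657 and 20649, against 21274, 20475 and 20702 with DMSO, and the groups overlapped (log2 -0.03, 95% interval -0.17 to 0.11, adjusted p 0.791). DLGAP5, which stabilises kinetochore fibres, was 1.3-fold lower with siDHX9 (adjusted p 0.00761) and had a log2 change of -0.11 with YK-4-279 (adjusted p 0.367). HMMR, which focuses spindle poles, was called in neither (log2 -0.20 with YK-4-279 and -0.36 with siDHX9, adjusted p 0.329 and 0.0753).

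**Figure D3:**
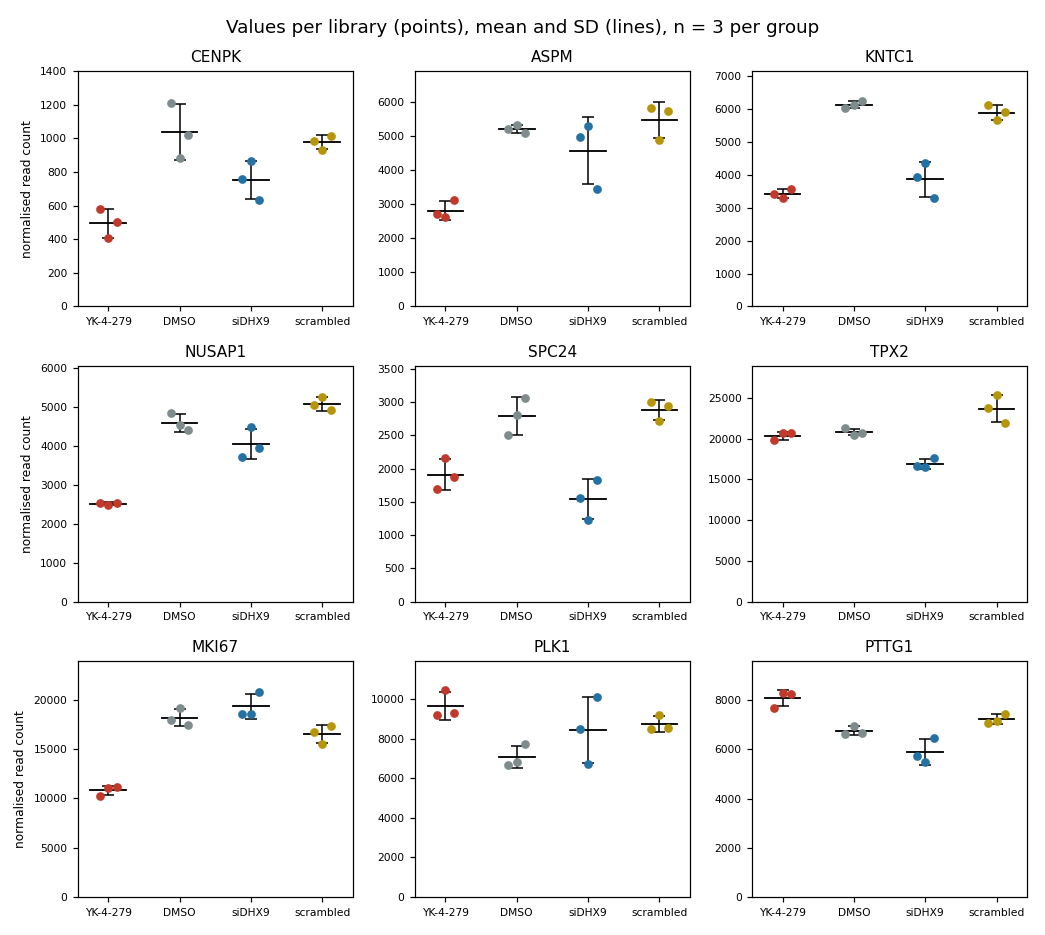
Normalised read count of 9 members in each library (points), with the mean and SD of the 3 libraries (lines), in YK-4-279, DMSO, siDHX9 and scrambled cells. CENPK, ASPM, KNTC1, NUSAP1, SPC24 and MKI67 are lower with YK-4-279 than with DMSO, TPX2 is lower with siDHX9 than with scrambled, and PLK1 and PTTG1 are higher with YK-4-279 than with DMSO.

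Of the central spindle and cytokinesis genes, PRC1 fell in both comparisons, ANLN with YK-4-279 and ECT2 with siDHX9. PRC1 crosslinks the microtubules of the spindle midzone and overlaps the antisense entry PRC1-AS1. It stood at 4331, 3958 and 4178 with YK-4-279, against 5701, 5282 and 4742 with DMSO (1.26-fold lower, adjusted p 0.041), and at 5027, 5976 and 5333 with siDHX9, against 6562, 7910 and 6340 with scrambled (1.27-fold lower, adjusted p 0.0312). The siDHX9 values of PRC1 lay below the scrambled values and overlapped the DMSO values. The first call was lost at 0.0514 to 0.166 without any 1 YK-4-279 library, DMSO replicate 1 or 2 or scrambled replicate 1, and the second at 0.0543 to 0.113 without siDHX9 replicate 1 or 3 or scrambled replicate 1 or 2. ANLN, the actin-binding scaffold of the contractile ring, stood at 1285, 1091 and 1118 with YK-4-279, against 2138, 1975 and 1858 with DMSO (1.71-fold lower, adjusted p 0.0014). It stood at 1884, 2334 and 1649 with siDHX9, against 2116, 2615 and 2341 with scrambled, overlapping (adjusted p 0.132), in an entry that overlaps KIAA0895. ECT2, the exchange factor that activates RhoA at the cleavage plane, stood at 1298, 1823 and 1192 with siDHX9, against 2145, 2537 and 2092 with scrambled (1.59-fold lower, adjusted p 0.00881). With YK-4-279 it stood at 1649, 1295 and 1499, against 2038, 1755 and 1748 with DMSO, apart but not called (adjusted p 0.159).

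NCAPG and NCAPH, which are non-SMC subunits of condensin I, fell with YK-4-279, and NCAPH also with siDHX9. NCAPG stood at 3873, 3828 and 4054 with YK-4-279, against 6959, 6263 and 6490 with DMSO (1.68-fold lower, adjusted p 0.000102). In siDHX9 libraries it stood at 5846, 6495 and 5180, against 6614, 6394 and 6664 in scrambled libraries (log2 -0.17, adjusted p 0.158), in an entry that overlaps LCORL. NCAPH was 1.58-fold lower with YK-4-279 (adjusted p 0.000114) and 1.2-fold lower with siDHX9 (adjusted p 0.0312; 0.0578 to 0.114 without siDHX9 replicate 1 or 3 or scrambled replicate 1 or 2). The entries of the SMC ATPases that both condensins share had few counts. SMC4 stood at 222, 312 and 173 with siDHX9, against 396, 589 and 311 with scrambled (1.82-fold lower, adjusted p 0.0344; 0.0762 to 0.135 without siDHX9 replicate 1 or 3 or scrambled replicate 1 or 2). The siDHX9 and scrambled libraries of SMC4 overlapped. With YK-4-279 it stood at 231, 141 and 188, against 362, 296 and 275 with DMSO, not called (adjusted p 0.0643), in an entry that overlaps TRIM59-IFT80. SMC2 stood at 76.7, 36.2 and 49.4 with YK-4-279, against 92.5, 87.4 and 51.4 with DMSO, and at 48.6, 91.5 and 37.8 with siDHX9, against 52.3, 138 and 60.9 with scrambled. Its groups overlapped throughout, and the 95% interval of its YK-4-279 change ran from -1.41 to 0.36 on the log2 scale.

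MKI67, the Ki-67 protein that coats mitotic chromosomes and keeps them apart (GSHG0004450, chr10:129894927-129924470), moved in opposite directions. It stood at 10272, 11073 and 11110 with YK-4-279, against 17971, 19145 and 17458 with DMSO (1.68-fold lower, log2 -0.75 ± 0.07 SE, adjusted p 3.26e-05). It stood at 18607, 18545 and 20843 with siDHX9, against 16737, 15514 and 17359 with scrambled (1.17-fold higher, adjusted p 0.0484). The 3 YK-4-279 libraries were the lowest of the 12, and the siDHX9 libraries all lay above the scrambled ones. The rise with siDHX9 is near the threshold: it was lost, at 0.0582 to 0.151, in all fits without 1 library other than those without siDHX9 replicate 2 or scrambled replicate 3.

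Securin and separase, the inhibitor and the protease that cleaves cohesin at anaphase, did not share a direction with YK-4-279. PTTG1, or securin (GSHG0024426, chr5:159848814-159855751), stood at 7705, 8302 and 8251 with YK-4-279, against 6639, 6963 and 6687 with DMSO (1.2-fold higher, adjusted p 0.0332). It stood at 5731, 5474 and 6480 with siDHX9, against 7068, 7162 and 7459 with scrambled (1.23-fold lower, adjusted p 0.0161; 0.0567 without siDHX9 replicate 1). No groups overlapped in either comparison, but the rise with YK-4-279 was lost without any 1 of the YK-4-279 or DMSO libraries (0.0537 to 0.125). ESPL1, or separase, stood at 161, 145 and 112 with YK-4-279, against 197, 220 and 163 with DMSO, and at 220, 273 and 184 with siDHX9, against 293, 391 and 285 with scrambled. The libraries of both pairs lay apart, with log2 changes of -0.48 and -0.52, and neither was called (adjusted p 0.115 and 0.0783).

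Set against each other, the 2 comparisons called 11 members lower in both: PLK4, BUB1, TTK, CENPI, NUF2, SPC24, SPC25, KNTC1, NUSAP1, PRC1 and NCAPH. Of all 14225 genes, 130 (0.914%) were called lower in both. Only KNTC1 of the 11 kept both calls in every alternative tried. With siDHX9, SPC25 lost its call in 15 of 22 alternatives and BUB1 in 12. The 2 comparisons share no libraries, but they share the estimate of each gene's spread over all 12 libraries, so their calls are not independent. For 9 of these 11 the siDHX9 mean was also below the DMSO mean. Over all 41 members, scrambled cells stood at a median log2 of 0.096 and siDHX9 cells at -0.17 relative to the DMSO mean, so the scrambled controls were the slightly higher ones. Another 14 members were called lower with YK-4-279 and not called with siDHX9, and 5 the other way round (CENPH, TPX2, DLGAP5, ECT2 and SMC4). Of all genes, 6.49% were called lower with YK-4-279 and 7.97% with siDHX9, whatever the other comparison gave. A call in one comparison and not in the other is no test of a difference, which was therefore tested itself.

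The effect of YK-4-279 minus that of siDHX9 differed from 0 for 11 of the 41 members, where 9.69% of all genes passed (5.29% lower and 4.4% higher). It was lower for BUB3, NDC80, ZWINT, CENPF, INCENP, NUSAP1, NCAPG, NCAPH and MKI67, and higher for TPX2 and PTTG1. MKI67 had the widest gap, at -0.97 ± 0.10 SE on the log2 scale (adjusted p 0.000149). Among the members called lower, ZWINT followed at -0.70 (adjusted p 0.00316), then NCAPG at -0.57 (adjusted p 0.00858). On the other side, PTTG1 had a difference of 0.55 (adjusted p 0.00546) and TPX2 of 0.45 (adjusted p 0.00874). CENPK and ASPM had gaps of -0.68 and -0.61 that were not called (adjusted p 0.0577 and 0.0582), nor was that of PLK1, at 0.52 (adjusted p 0.0666). Members near no difference included BUB1, PRC1 and ESPL1, at -0.03, 0.01 and 0.04, with 95% intervals of -0.27 to 0.22, -0.29 to 0.32 and -0.54 to 0.63. The calls on INCENP (0.0617 to 0.0862 in 7 fits), NCAPH (0.0603 to 0.0809 in 6 fits) and NDC80 (0.0502 without DMSO replicate 1) were lost without single libraries: INCENP held without YK-4-279 replicate 2, scrambled replicate 2 or 3 or siDHX9 replicate 2 or 3, and NCAPH without DMSO replicate 3, scrambled replicate 2 or 3 or any 1 siDHX9 library. Without siDHX9 replicate 3, 20 members differed, and over all fits without 1 library 762 to 1883 genes did. With DESeq2, 17 members and 14.7% of all genes differed.

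**Figure D4:**
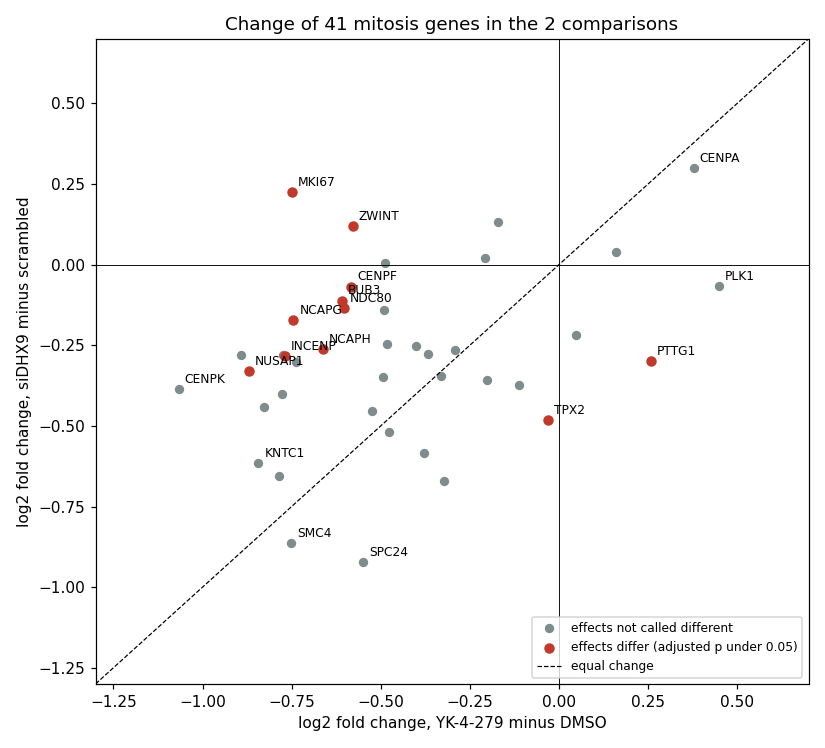
Log2 fold change of each member with YK-4-279 relative to DMSO (x axis) against that with siDHX9 relative to scrambled (y axis), 1 point per gene, with red points where the 2 effects differed at a limma adjusted p under 0.05 and a dashed line of equal change. Of the 11 red points, 9 lie above the line, with MKI67 the farthest, and PTTG1 and TPX2 lie below it.

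Beyond the 41, a list of 89 other mitosis genes had 88 measured. With YK-4-279, 38 of the 88 fell and 1 rose, with a median log2 change of -0.33, where 6.49% of all genes fell and 7.33% rose. With siDHX9, 25 fell and 1 rose, with a median of -0.21, where 7.97% of all genes fell and 8.75% rose. The largest falls with YK-4-279 were those of FAM83D, a spindle-targeting protein (2.37-fold, adjusted p 1.24e-05), and CKAP2L, a spindle protein (2.13-fold, adjusted p 0.000861). They were followed by CENPC, which links CENPA nucleosomes to the kinetochore (2.02-fold, adjusted p 0.000124), KNL1, the outer kinetochore platform for checkpoint proteins (1.98-fold, adjusted p 0.00507), and CDCA2, a phosphatase partner on chromosomes (1.96-fold, adjusted p 0.00334). Genes that fell with siDHX9 included PBK, a mitotic kinase whose entry overlaps ESCO2 (2.19-fold, adjusted p 2.68e-05), and SASS6, a centriole cartwheel protein (1.68-fold, adjusted p 0.0463). SPDL1, a dynein adaptor at kinetochores (1.65-fold, adjusted p 0.000234), and the cohesin subunit STAG2, whose entry overlaps LOC101928402 (1.6-fold, adjusted p 0.00944), also fell. The siDHX9 call on SASS6 was lost in 9 of the 12 fits without 1 library (0.0551 to 0.182), and held without YK-4-279 replicate 2, scrambled replicate 1 or siDHX9 replicate 2. The 2 rises, named after their values were seen, were SEPT9, a septin of the cytokinetic furrow, with YK-4-279 (1.61-fold, adjusted p 0.000861, in an entry that overlaps several others), and MAD2L1BP, which takes MAD2L1 out of its active form, with siDHX9 (1.29-fold, adjusted p 0.0228).

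The effects differed between the comparisons for 18 of these 88 genes, 15 lower and 3 higher, where 5.29% of all genes were lower and 4.4% higher. FAM83D had the widest gap, at -1.39 (adjusted p 0.000178), falling with YK-4-279 and standing at a log2 change of 0.14 with siDHX9. DSN1, a subunit of the MIS12 complex under the outer kinetochore, had a gap of -0.93 (adjusted p 0.000256). HJURP, the chaperone that deposits CENPA, had one of -0.82 (adjusted p 0.0002), and CDCA3, a trigger of mitotic entry whose entry overlaps GNB3, one of -0.89 (adjusted p 0.00154). PBK ran the other way, at 0.80 (adjusted p 0.00664).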

How the data were processed

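The deposited table holds 1 signal value per entry and library: read counts that, per the file headers, were normalised with DESeq. Per the submitters' processing notes reads were handled with STAR 2.4.0 and build hg19, and FastQC, Picard, SAMtools and DESeq are also named. No source used here gives the read counter or its strand setting, so reads of overlapping or antisense genes cannot be told apart. Values are not divided by gene length and are compared only within a gene.

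For the 12 libraries, limma 3.58.1 under R 4.3.3 estimated a mean for each of the 4 groups from log2(value + 1), with 8 residual degrees of freedom and the variance allowed to follow the mean level. The groups share the estimate of the spread of each gene. Tests are two-sided, and p values were Benjamini-Hochberg adjusted over the 14225 named entries with a mean of at least 10. A call is an adjusted p under 0.05, and confidence intervals are 95%. The scripts were tested on simulated data. In each library 100% of the values were whole multiples (within 0.1) of what 1 read is worth, and the read counts recovered in this way gave the depths and went into edgeR 4.0.16 and DESeq2 1.42.0 as alternatives, beside other added values, minimums and scalings, a replicate block, fits without 1 library and fits of 6 libraries. The depth bounds counting error only.

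The 41 members and the list of other mitosis genes were chosen with earlier results of these data known. Values per library are printed for the 12 members with the largest absolute log2 change in each comparison, the 5 with the largest difference of the effects and the highest in each role. Of the other mitosis genes, up to 5 per comparison were named by size of change among those called, and 1 that this rule picks is not reported here.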

Additional observations from a re-analysis of the deposited data

How the results depend on the processing

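No called member changed sign under any alternative tried. Of the members called, 19 of 28 with YK-4-279, 3 of 18 with siDHX9 and 8 of 11 for the difference of the effects kept their call in every alternative. In fits of 6 libraries alone, 4270 genes and 34 members were called with YK-4-279, and 492 genes and 3 members with siDHX9; DESeq2 called 2097 genes and 17 members for the difference of the effects. Without 1 library, the numbers called ran from 858 to 2795 genes and 20 to 32 members with YK-4-279, 1244 to 4255 genes and 8 to 30 members with siDHX9, and 762 to 1883 genes and 8 to 20 members for the difference. The median change of the members ran from -0.54 to -0.46 with YK-4-279, -0.35 to -0.23 with siDHX9 and -0.25 to -0.15 for the difference. With no minimum on the mean, MAD2L1 (0.0573) and PRC1 (0.0513) lost their calls with YK-4-279, and BUB1 (0.0504), SPC25 (0.0562), SMC4 (0.0531) and MKI67 (0.0699) with siDHX9. Quantile normalisation ended the calls on PRC1 with YK-4-279 (0.0687), SPC25 with siDHX9 (0.0555) and NDC80 (0.051), INCENP (0.058) and NCAPH (0.0662) for the difference. Leaving out entries shared with or overlapping another gene, chosen after seeing the data, left 34 members, of which 22 fell and 2 rose with YK-4-279 and 15 fell and 1 rose with siDHX9. The causes were not tested.

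Whether the replicate numbers pair the samples is not settled by these data, and the main fits use no pairing. Deviations of same-numbered libraries correlated at 0.12, 0.05 and -0.01 between YK-4-279 and DMSO. Those of libraries with different numbers ran from -0.14 to 0.08. Between siDHX9 and scrambled, same-numbered libraries correlated at 0.05, 0.06 and 0.08, and those with different numbers at -0.09 to 0.04. The same-numbered values were the higher ones there, but all are small. With a replicate block, 29 members and 1601 genes were called with YK-4-279, 15 members and 2118 genes with siDHX9, and 9 members and 1118 genes for the difference; the block ended the siDHX9 calls on BUB1 (0.0564), SPC25 (0.0612), NCAPH (0.0505) and MKI67 (0.063) and the calls on the difference for INCENP (0.0504) and NCAPH (0.053). Reads counted without molecular identifiers limit the members with few counts most, such as SMC2.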
